A study of Mus musculus with 6 samples.

Results

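10 genes of the Hippo pathway and of its YAP branch were followed in CD8+ T cells of the mouse, activated and of splenic origin. They were taken by gene symbol from the 47729 genes measured, and all 10 were present in each library. 7 belong to the pathway itself: Stk4, Stk3, Sav1, Lats1, Lats2, Mob1a and Yap1. The other 3, Axl, Ptpn14 and Asap1, are YAP target genes that were chosen by their adjusted p in the comparison of blebbistatin with vehicle in these same libraries, so their values there are given as a description with no test. RNA was sequenced from 3 libraries treated with vehicle and 3 treated with 2 µM blebbistatin, all after 24 h. Blebbistatin blocks the motor activity of nonmuscle myosin II, and the series asked how a drug acting on the cytoskeleton affects these cells. The labels give no strain, age or genotype of the mice and do not say what the vehicle was or whether replicates came from separate animals, so the p-values measure only the spread between these libraries, which may be technical.

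The Hippo pathway is a kinase cascade. The kinases MST1 (gene Stk4) and MST2 (Stk3), held by the scaffold SAV1, activate the kinases LATS1 and LATS2 with the help of MOB1. LATS phosphorylates the coactivator YAP and keeps it out of the nucleus, while unphosphorylated YAP enters the nucleus, binds the TEAD DNA-binding proteins and turns on its targets. In adherent cells tension on actin and myosin raises nuclear YAP. In T cells MST1 is best known for a role apart from YAP, in adhesion, trafficking and survival, where it works with the adaptor RAPL (Rassf5).

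TEAD proteins bind the letters GGAATG, read as CATTCC on the other strand, an element called MCAT. Promoter windows, from 250 bases before to 50 bases after a gene's start, were present for 8 of the 10 members in the RefSeq set for GRCm38.p6, and Stk3 and Asap1 had none there. The element was found in a window of 6 members, namely Sav1, Lats2, Mob1a, Yap1, Axl and Ptpn14, and not in those of Stk4 and Lats1. Both strands were searched, and 14.7% of all 32851 windows of that length held it. Of 15 genes of a YAP and TEAD target signature (described below) with a window, 7 held it, the members Axl, Ptpn14 and Lats2 among them. This count and that of the members are by gene, over any of its windows, while 14.7% is a share of windows. The letters TGANTCA of AP-1, whose ends can overlap MCAT by TG or CA, were in 7.81% of all windows, in 0 of the members' windows and in 1 of the 15 signature genes. A match of letters is not evidence of binding. The windows of the target genes Axl and Ptpn14, of Lats2, which is both a kinase of the pathway and a YAP target, and of Yap1 itself are shown 5′ to 3′ on the gene's strand, with the MCAT letters in capitals.
Axl, chr7:25788684-25788983, minus strand: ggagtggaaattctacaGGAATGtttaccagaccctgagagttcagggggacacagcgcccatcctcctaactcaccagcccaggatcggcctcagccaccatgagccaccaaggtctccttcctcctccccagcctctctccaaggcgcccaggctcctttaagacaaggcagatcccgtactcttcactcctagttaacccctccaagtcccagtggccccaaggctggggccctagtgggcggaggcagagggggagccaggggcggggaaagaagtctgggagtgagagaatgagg
Ptpn14, chr1:189728018-189728317, plus strand: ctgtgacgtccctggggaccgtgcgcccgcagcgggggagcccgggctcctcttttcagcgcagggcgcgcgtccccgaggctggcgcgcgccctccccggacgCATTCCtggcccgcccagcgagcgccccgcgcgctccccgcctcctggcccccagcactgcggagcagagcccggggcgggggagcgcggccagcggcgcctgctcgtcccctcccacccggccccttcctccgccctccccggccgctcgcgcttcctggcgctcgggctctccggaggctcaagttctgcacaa
Lats2, chr14:57746074-57746373, minus strand: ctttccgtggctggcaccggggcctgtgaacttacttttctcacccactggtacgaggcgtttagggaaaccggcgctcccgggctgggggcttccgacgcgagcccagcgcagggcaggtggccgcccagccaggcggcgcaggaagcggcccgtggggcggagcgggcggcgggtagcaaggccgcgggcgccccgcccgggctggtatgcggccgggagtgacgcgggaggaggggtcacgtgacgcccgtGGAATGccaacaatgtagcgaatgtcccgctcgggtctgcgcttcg
Yap1, chr9:8004547-8004846, minus strand: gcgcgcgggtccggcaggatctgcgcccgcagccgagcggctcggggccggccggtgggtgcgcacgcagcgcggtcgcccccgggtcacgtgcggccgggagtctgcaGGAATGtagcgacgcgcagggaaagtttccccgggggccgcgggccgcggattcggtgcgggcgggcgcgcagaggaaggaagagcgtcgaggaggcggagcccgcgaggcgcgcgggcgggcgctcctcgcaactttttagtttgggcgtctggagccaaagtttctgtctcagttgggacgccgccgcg
Counted from the RefSeq start that each window was built on, the match begins at base -233 for Axl, -146 for Ptpn14, -141 for Yap1 and 4 for Lats2, so it lies upstream in the first 3 and just downstream in Lats2. The Lats2 start used here lies inside the gene as the deposited tables place it, and a second Lats2 window, further inside, held no match.

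Each library rested on 5.54 to 5.98 gigabases of aligned sequence, as the ratio of read depth to FPKM implies, and the groups overlapped in depth. The cells carried the markers of the label: the sum of 10 T cell genes, among them Cd3e, Cd8a and Cd8b1, was 4132 to 4154 TPM (an abundance per transcript, corrected for transcript length and library total) with vehicle and 4111 to 4369 TPM with blebbistatin, while Cd4 stayed at or below 0.244 TPM. Of the other CD4 T cell markers listed, Zbtb7b averaged 14.2 TPM, Foxp3 1.35 TPM and Cd40lg 0.532 TPM over all libraries, so not all were absent. The test covered the 13372 genes that averaged 1 TPM or more and used limma on log2(TPM + 1) with Benjamini-Hochberg adjustment at 0.05. Of these, 1.82% were called: 187 genes (1.40%) were higher and 57 (0.426%) lower with blebbistatin, a split that became 130 and 67 with median-ratio scaling and 272 and 192 with a correction for length and GC content. The groups did not overlap in 31.0% of genes. The calls depend on the set of libraries: without blebbistatin 3 only 3 genes were called higher and 0 lower, without vehicle 1, 2 or 3 between 6 and 13 were higher and 0 to 2 lower, without blebbistatin 1 there were 89 higher and 31 lower, and without blebbistatin 2, which over all tested genes lay nearest to the vehicle mean (root mean square log2 distance 0.284, against 0.406 and 0.326 for blebbistatin 1 and 3), 496 higher and 594 lower. In bulk RNA, here and for every result that follows, fewer cells of a type and less RNA per cell cannot be told apart.

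The kinase core was expressed in full, led by Stk4. In the deposited mm10 tables Stk4 lies at chr2:164070322-164155524, Stk3 at chr15:34875496-35155806, Sav1 at chr12:69965012-69987002, Lats1 at chr10:7681209-7716458, Lats2 at chr14:57642077-57758388, Mob1a at chr6:83326016-83343776 and Yap1 at chr9:7931999-8004596, all protein-coding. Stk4 stood at 116.2, 114.4 and 116.8 TPM in vehicle 1, 2 and 3 and at 140.4, 127.7 and 131.5 TPM in blebbistatin 1, 2 and 3. Sav1, the scaffold that joins MST to LATS, stood at 33.9, 37.5 and 35.6 TPM with vehicle and 46.1, 38.0 and 41.1 TPM with blebbistatin. For both genes every blebbistatin library lay above every vehicle library, for Sav1 by a margin of less than 1 TPM. Mob1a, the coactivator of LATS, stood at 32.5, 31.1 and 30.2 TPM with vehicle and 40.1, 29.7 and 32.9 TPM with blebbistatin, where blebbistatin 1 was the highest and blebbistatin 2 the lowest of the 6 libraries. Lats1 stood at 15.6, 16.9 and 15.9 TPM with vehicle and 19.2, 16.3 and 16.6 TPM with blebbistatin. Its groups overlapped, and blebbistatin 1 was again the highest library. Stk3, which encodes MST2, stood at 6.59, 5.24 and 5.77 TPM with vehicle and 6.72, 6.32 and 6.41 TPM with blebbistatin. Lats2 stood at 4.74, 6.499 and 5.08 TPM with vehicle and 5.76, 6.40 and 6.73 TPM with blebbistatin. For these 2 paralogs of low level the groups overlapped.

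**Figure D1:**
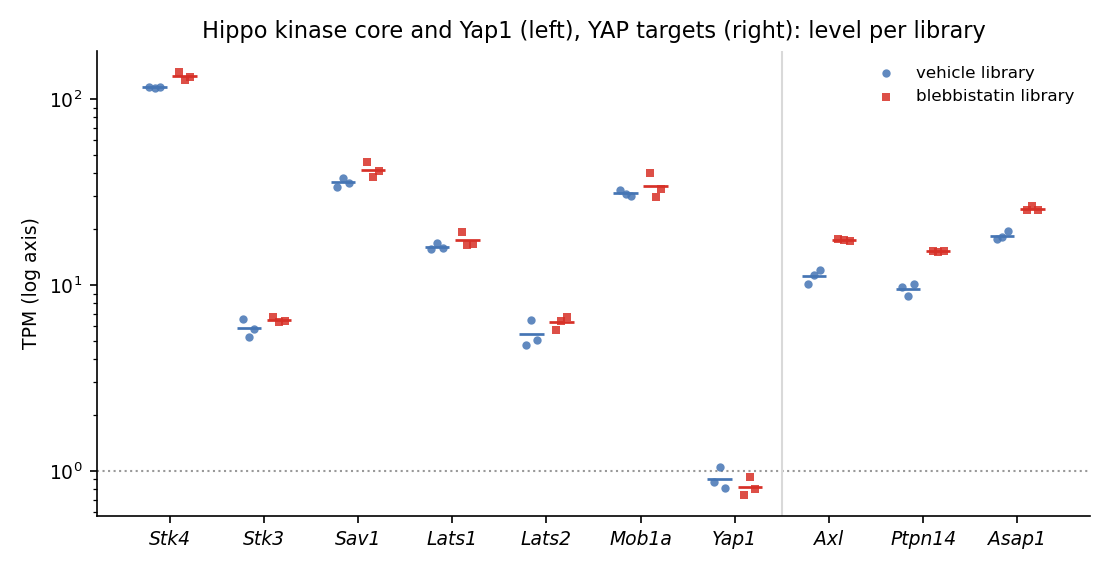
TPM of the 10 members on a log axis, one point per library, with vehicle in blue circles and blebbistatin in red squares and a bar at each group's mean; the dotted line marks 1 TPM. The levels run from Stk4, above 114 TPM in each library, down to Yap1, near 1 TPM, and the points of both groups lie apart for Axl, Ptpn14 and Asap1 and, by narrow margins, for Stk4 and Sav1.

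None of the 6 pathway members that could be tested passed. By limma with Benjamini-Hochberg adjustment over all tested genes, 0 of 6 were called, beside 1.82% of all tested genes, and 2 of 6, Stk4 and Sav1, had an unadjusted p under 0.05, as did 22.9% of all tested genes. The groups did not overlap in the same 2 of 6 genes, both higher with blebbistatin, where 18.0% of all tested genes lay without overlap on the higher side and 31.0% on either side. For Stk4 the log2 fold change was 0.20 (SE 0.05, 95% interval 0.07 to 0.33 before adjustment, adjusted p = 0.108 by limma), from 115.8 ± 1.27 to 133.2 ± 6.51 TPM (means with SD, 3 libraries a group, as for all such pairs of values that follow). For Sav1 it was 0.22 (95% interval 0.02 to 0.42, adjusted p = 0.193 by limma), from 35.7 ± 1.80 to 41.7 ± 4.10 TPM. Lats1, Lats2, Stk3 and Mob1a had log2 fold changes of 0.10, 0.19, 0.13 and 0.12, with 95% intervals that reached from -0.14 at the lowest to 0.49 at the highest and adjusted p of 0.411 to 0.541. All 6 point estimates were above 0, as were 55.1% of those of all tested genes, whose median was 0.03. With the length and GC correction, those of Stk3 and Lats1 turned to -0.03 and -0.04, and those of Sav1 and Mob1a came to 0.08 and 0.01. The common direction of the kinase core therefore depends on that choice, under which no member of it passed either.

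In each of the 3 paralog pairs 1 member held most of the RNA, and the TPM shares of vehicle and blebbistatin overlapped. Stk4 made up 95.2% ± 0.5 of the summed TPM of Stk4 and Stk3 with vehicle and 95.4% ± 0.0735 with blebbistatin. Lats1 made up 74.9% ± 2.38 and 73.3% ± 3.14 of the Lats pair. Mob1a made up 67.7% ± 4.70 and 63.9% ± 3.11 of the pair with Mob1b, which stood at 12.4, 18.3 and 14.4 TPM with vehicle and 20.7, 19.5 and 17.3 TPM with blebbistatin (adjusted p = 0.210 by limma). Exact permutation tests of the 3 shares, two-sided, gave p = 0.8, 0.6 and 0.4, where 3 libraries against 3 cannot go below 0.1. By read depth, a measure explained next, the Stk4 and Mob1a shares overlapped as well, while that of Lats1 was 95.1% ± 0.691 with vehicle and 93.5% ± 1.20 with blebbistatin. Its groups did not overlap, the exact permutation p was 0.1, and over all 6 such tests the adjusted p was 0.6 for it and 1.0 for the others.

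The size of those shares depends on how the authors' software divided reads among transcripts. The deposited tables also give the mean read depth over each gene. Its ratio to FPKM was divided by a ceiling, set at a high quantile of that ratio over the library's genes above 1 TPM. The result is read here as the mean length of the transcripts behind the estimate, as a percentage of the gene's merged exons. It was at the ceiling in 99.6% of 2772 tested genes with 1 annotated transcript, and had a median of 47.0% in genes with 5 or more. Lats1 and Sav1 lay at 98.4% and 100%, and the Lats1 estimate is full-length on that reading. By the GENCODE M21 gene models the reading fails for Sav1 and Stk3. The longest Sav1 transcript has 3360 of 5265 merged exon bases, which is short of 100%. That of Stk3 has 3294 of 6114, which is short of its 87.1%. The reading is therefore uncertain for the other members as well. Asap1 lay at 9.4% to 10.6%, Lats2 at 16.8% and Stk4 at 22.4%, with 3.3%, 5.9% and 9.8% of tested genes lower, so on that reading their TPM is carried mostly by short transcripts. The other members lay between, from Yap1 at 45.1% over Mob1a (59.9%), Ptpn14 (68.3%) and Axl (73.0%) to Stk3 at 87.1%. Read depth set over the whole gene therefore gives another order. Sav1 was first by depth, with 90.1 to 126 reads per base, ahead of Stk4 with 69.0 to 84.4, while Asap1 went from the fourth place by TPM to the eighth, with 4.43 to 7.69. By depth, scaled to each library's sum, Lats1 exceeded Lats2 by 11.8 to 22.2 times, against 2.47 to 3.33 times by TPM, and Stk4 exceeded Stk3 by 4.63 to 5.62 times, against 17.6 to 21.8 times by TPM. Lats2 is further uncertain because 42.4% of its exons are shared with the overlapping gene Gm49361 on the same strand in GENCODE M21. That symbol was not found among the genes measured, so the level of Gm49361 cannot be given and its part in the Lats2 value was not tested. 25.4% of the Sav1 exons overlap Atl1 on the other strand, but Atl1 itself stood at no more than 0.312 TPM.

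**Figure D2:**
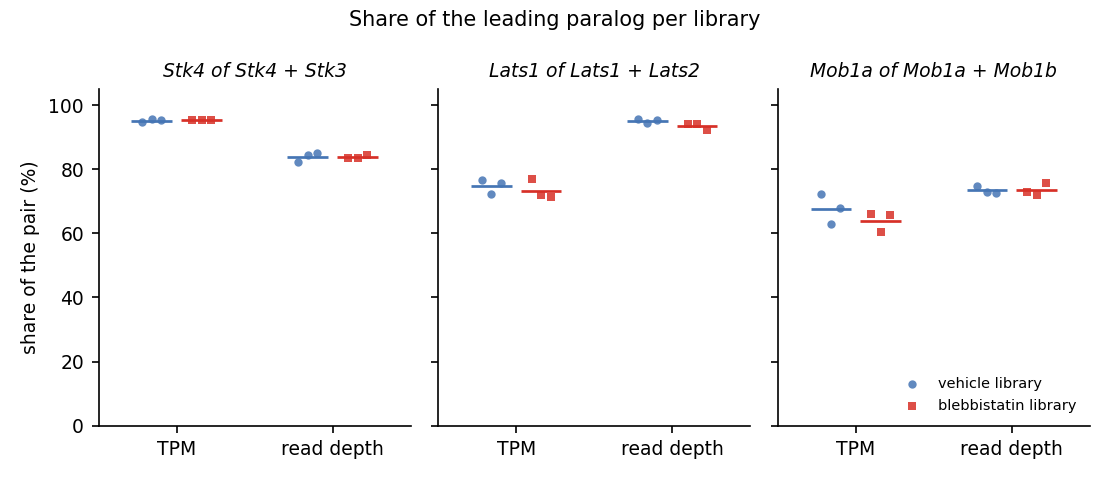
Share of Stk4, Lats1 and Mob1a in the sum with their paralog, in percent, per library and by 2 measures, TPM and read depth scaled to the library; bars are group means. Lats1 holds 71.2% to 76.9% of its pair by TPM and 92.2% to 95.7% by depth, and the groups overlap in each pair and measure except Lats1 by read depth.

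By TPM the order of the 10 members was Stk4, Sav1, Mob1a, Asap1, Lats1, Axl, Ptpn14, Stk3, Lats2 and Yap1. The 6 libraries of Sav1 and Mob1a, of Asap1 and Lats1, of Lats1 and Axl, of Axl and Ptpn14 and of Stk3 and Lats2 overlapped, so these neighbours did not separate by level, although Sav1 was above Mob1a, Asap1 above Lats1 and Axl above Ptpn14 within each of the 6 libraries.

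Yap1, the coactivator on which the cascade acts, was detected in each library at a low level, near the minimum of 1 TPM for testing. It stood at 0.872, 1.04 and 0.813 TPM with vehicle and 0.746, 0.926 and 0.800 TPM with blebbistatin, on a mean depth of 0.922 to 1.29 reads per base. The groups overlapped, with vehicle 2 highest and blebbistatin 1 lowest, and the gene was below the minimum for testing. Its DNA-binding partners were lower still. Tead1 lay between 0.119 and 0.167 TPM and Tead2 between 0.243 and 0.573 TPM, with each blebbistatin library (0.285, 0.313 and 0.243 TPM) below each vehicle library (0.347, 0.573 and 0.444 TPM). Tead3 did not exceed 0.126 TPM and Tead4 was listed at 0 in each library. Wwtr1, which encodes the YAP paralog TAZ, was listed at 0 in 5 libraries and at 0.0226 TPM in vehicle 2. Vgll4, which competes with YAP for TEAD, was by contrast well expressed, at 38.4, 42.3 and 42.4 TPM with vehicle and 37.1, 41.1 and 39.3 TPM with blebbistatin (log2 fold change -0.06, adjusted p = 0.606 by limma).

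The 3 target members stood higher with blebbistatin in every library. Axl, a receptor tyrosine kinase that dampens immune signalling and aids uptake of dying cells, stood at 10.2, 11.4 and 12.1 TPM with vehicle and 17.7, 17.5 and 17.4 TPM with blebbistatin. The means were 11.2 ± 0.964 and 17.5 ± 0.151 TPM, a ratio of 1.56 and a log2 fold change of 0.60. Ptpn14, a phosphatase that binds YAP and restrains it and is itself a YAP target, stood at 9.78, 8.74 and 10.2 TPM with vehicle and 15.3, 15.1 and 15.2 TPM with blebbistatin. Its ratio of means was 1.59 and its log2 fold change 0.62. The blebbistatin libraries of both genes spread less than the vehicle libraries did. Asap1, a GTPase-activating protein for ARF that acts in adhesion and actin remodelling, stood at 17.7, 18.1 and 19.5 TPM with vehicle and 25.5, 26.5 and 25.3 TPM with blebbistatin, a ratio of 1.40 and a log2 fold change of 0.46. The groups did not overlap in any of the 3, beside 18.0% of all tested genes on the higher side and 31.0% on either side. A choice by small adjusted p favours such a gap and a small spread within groups, so nothing is read from either. Blebbistatin 2 was not the lowest blebbistatin library for Axl or Asap1. Passing the test is what chose these genes, so nothing is read from it; the calls themselves were lost when any 1 library other than blebbistatin 2 was left out. Of the 9 signature genes tested, Asap1 (0.46) was the last inside the threshold and Crim1 (0.15) the first outside it.

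**Figure D3:**
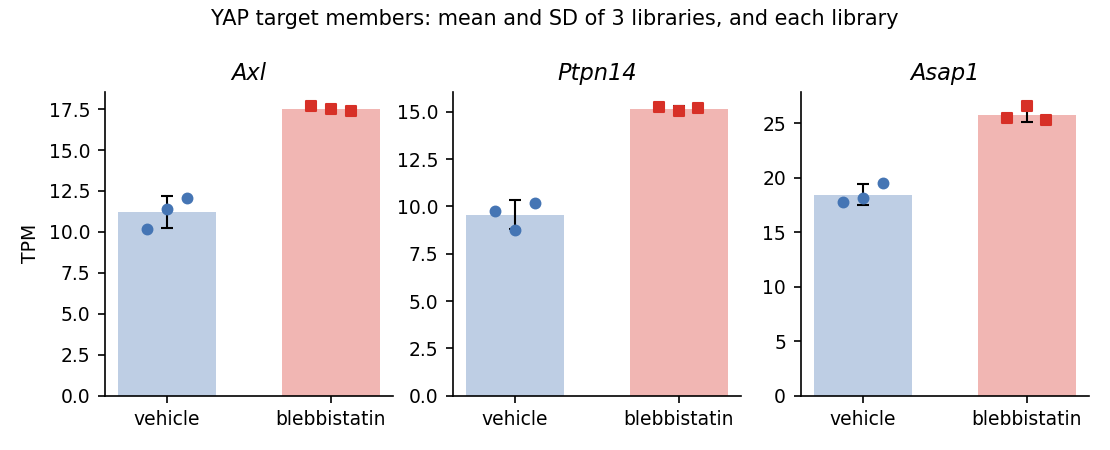
TPM of Axl, Ptpn14 and Asap1 in vehicle and blebbistatin; bars are means of 3 libraries with SD and points are libraries. Each blebbistatin point lies above each vehicle point, with group means of 11.2 and 17.5 TPM for Axl, 9.57 and 15.2 TPM for Ptpn14 and 18.4 and 25.8 TPM for Asap1.

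Axl is also a gene of macrophages, dendritic and stromal cells, so their markers are given beside it. Of 12 myeloid and dendritic markers 3 were tested and 0 called by limma, with 1 at an unadjusted p under 0.05. Over all tested genes 1.82% were called and 22.9% had an unadjusted p under 0.05. The sum of the 12 markers was 92.1 to 94.2 TPM with vehicle and 73.5 to 101.8 TPM with blebbistatin. Most of it was Cst3, which passed as lower without blebbistatin 2 (-0.40, adjusted p = 0.0252 by limma). Mertk was at 0 in each library, Csf1r did not exceed 0.0231 TPM and Adgre1 did not exceed 0.195 TPM. Cd68, a lysosomal protein of macrophages and the marker with the unadjusted p under 0.05, stood at 6.33, 6.97 and 5.13 TPM with vehicle and 9.96, 9.12 and 8.67 TPM with blebbistatin, without overlap (log2 fold change 0.53, adjusted p = 0.0843 by limma). Of 10 fibroblast and endothelial markers 1 was tested and 0 called by limma (0 with an unadjusted p under 0.05), and Col3a1, Pdgfra and Dcn were at 0 in each library. Col1a2 and the endothelial receptor gene Kdr were higher with blebbistatin without overlap, at 0.0203 and 0.110 TPM and at 0.114 and 0.377 TPM on average, all below the minimum for testing. Platelet markers moved with the treatment: 6 of 9 tested (Pf4, Ppbp, Itga2b, Treml1, Itgb3 and Vwf) were called higher, beside 1.40% of all tested genes. The sum of 10 platelet markers was 63.2 to 71.95 TPM with vehicle and 141.7 to 159.7 TPM with blebbistatin. Of 4 tested B cell markers, 2 were called higher, beside the same 1.40%. H2-Eb1 went from 8.29 ± 1.40 to 20.0 ± 2.76 TPM and Igkc from 9.22 ± 1.41 to 16.6 ± 0.524 TPM. Cd79a, below the minimum in its mean, stood at 0.402 ± 0.0343 and 1.216 ± 0.334 TPM. The sum over 9 genes was 521.6 to 539.0 TPM with vehicle and 515.9 to 543.3 TPM with blebbistatin, and most of it was Ighm, at 500.0 ± 7.77 and 477.5 ± 12.6 TPM. The part of platelet, B cell, myeloid and stromal RNA in the values of Axl, Ptpn14 and Asap1 was not tested.

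The same 3 genes were also read by depth, scaled to a sum of 1000000 in each library. On that scale Axl stood at 11.7, 12.8 and 12.2 with vehicle and 18.98, 19.4 and 17.9 with blebbistatin, and Ptpn14 at 9.52, 9.17 and 9.72 against 15.7, 15.7 and 15.5. Asap1, whose TPM rests on short transcripts on the uncertain reading above, had a scaled depth of 2.47, 2.58 and 2.79 against 3.92, 4.02 and 3.98. This depth is a mean over the gene's merged exons, so it cannot say where along the gene the difference lay. These are the same reads, not further samples. Axl lies at chr7:25757273-25788705, Ptpn14 at chr1:189728268-189876695 and Asap1 at chr15:64086857-64382919 in the deposited mm10 tables, all protein-coding. No exon of Axl or Asap1 is shared with another gene, and 1.3% of the Ptpn14 exons overlap Gm26574 on the other strand.

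**Figure D4:**
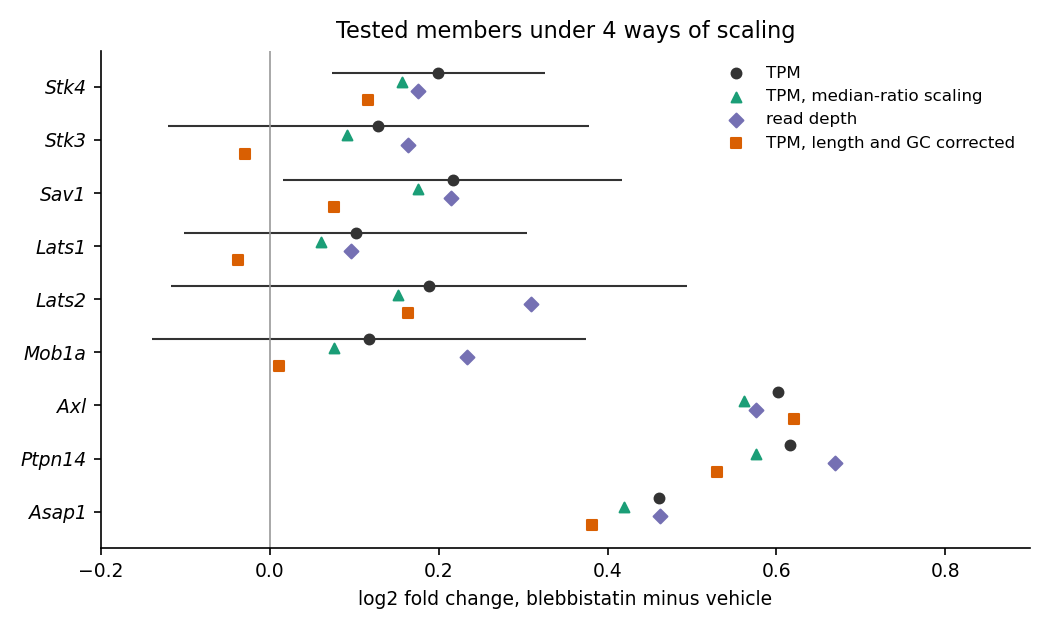
Log2 fold change of the 9 tested members under 4 ways of scaling: TPM, TPM with median-ratio scaling, read depth, and TPM corrected for length and GC content; lines are 95% intervals of the TPM values for the pathway members, before adjustment. Axl, Ptpn14 and Asap1 lie between 0.38 and 0.67 on each scale, while Stk3 and Lats1 cross 0 with the length and GC correction.

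The other tested genes of the YAP and TEAD target signature did not pass. The signature holds 22 genes, among them Axl, Ptpn14, Asap1 and Lats2, and 9 reached the minimum level. Apart from these 4 members, 0 of 5 tested genes were called by limma, where 1.82% of all tested genes were, and 1, Crim1, had an unadjusted p under 0.05, where 22.9% did. Their median log2 fold change was 0.05, with 3 above 0 and 2 below. Crim1, a transmembrane protein that binds growth factors of the BMP family, had the highest level of the signature, at 27.9, 28.0 and 29.7 TPM with vehicle and 32.3, 31.9 and 30.8 TPM with blebbistatin. Its groups did not overlap, and the log2 fold change was 0.15 (95% interval 0.00 to 0.29, adjusted p = 0.216 by limma). Nt5e, the ectoenzyme CD73, stood at 7.47 ± 0.589 and 7.76 ± 0.425 TPM (adjusted p = 0.782 by limma). Dock5, an exchange factor for RAC, stood at 5.50 ± 0.162 and 5.40 ± 0.1699 TPM (adjusted p = 0.901 by limma). Gadd45a, a stress gene, stood at 2.80 ± 0.266 and 3.63 ± 0.870 TPM, with 4.61 TPM in blebbistatin 2, and Nuak2, a kinase of the AMPK family, at 1.67 ± 0.298 and 1.47 ± 0.432 TPM. The 95% intervals of the log2 fold change were -0.18 to 0.28 for Nt5e, -0.24 to 0.19 for Dock5, -0.10 to 0.65 for Gadd45a and -0.53 to 0.30 for Nuak2.

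The 13 signature genes below the minimum include those most used to read YAP activity in adherent cells. Ctgf was listed at 0 in each library, Cyr61 at 0 in 5 libraries and at 0.0521 TPM in blebbistatin 2, and Ankrd1 at 0 in 5 and at 0.064 TPM in vehicle 1. With Foxf2, Amotl2, Ccdc80, Igfbp3 and Rbms3 they make 8 genes that stayed below 0.1 TPM in each library. Myof, Fjx1, F3, Tgfb2 and Arhgef17 reached higher values, up to 0.654 TPM for Arhgef17 in vehicle 3. Fjx1 stood at 0.252, 0.106 and 0.118 TPM with vehicle and 0.0699, 0.0507 and 0 TPM with blebbistatin, with no overlap. Tgfb2 stood at 0.0441, 0.0651 and 0.083 TPM with vehicle and 0.171, 0.1755 and 0.323 TPM with blebbistatin, with no overlap, but on a depth of at most 0.161 reads per base, where a few reads decide the value.

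**Figure D5:**
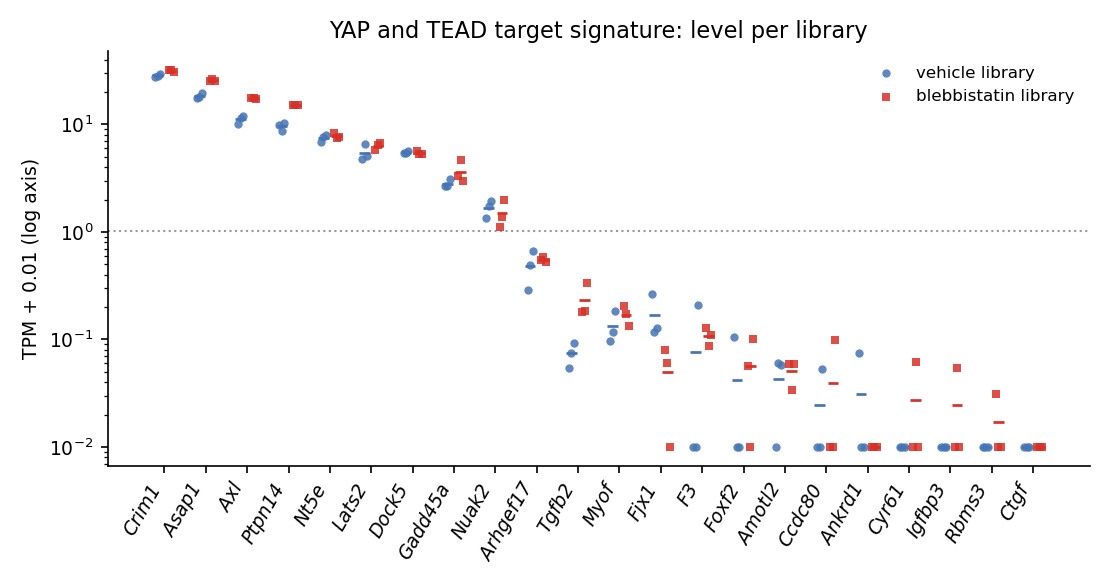
TPM + 0.01 on a log axis for the 22 genes of the YAP and TEAD target signature, ordered by mean level, one point per library, with bars at group means; points at 0.01 are listed at 0 TPM and the dotted line marks 1 TPM. The 9 genes on the left were tested, and Ctgf at the far right has all 6 libraries at 0.

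A wider list of 55 Hippo genes gave no call other than Ptpn14. The list was matched in full, Map4k6 through its current symbol Mink1, and 38 genes were tested, of which 1, the member Ptpn14, was called. Outside the members 0 of 31 tested genes were called by limma, 7 had an unadjusted p under 0.05 and 12 had groups that did not overlap, beside 22.9% and 31.0% over all genes. Their median log2 fold change was 0.02 and that of all tested genes 0.03, with 16 above 0 and 15 below. Nf2, the membrane-linked tumour suppressor merlin, stood at 55.5 ± 0.324 and 61.2 ± 3.15 TPM (log2 fold change 0.14, adjusted p = 0.219 by limma). Rassf1, an adaptor that binds MST kinases, was singled out after its values were seen: it stood at 63.7, 68.7 and 63.0 TPM with vehicle and 36.7, 53.0 and 47.3 TPM with blebbistatin (log2 fold change -0.52, adjusted p = 0.0935 by limma). Without blebbistatin 2 it passed (-0.63, adjusted p = 0.0307 by limma), as did Slmap, which ties a phosphatase complex to MST (0.31, adjusted p = 0.0479 by limma).

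The partners of MST1 and MOB1 in T cells also gave no call. Of 23 listed genes 21 were tested, 0 were called by limma and 7 had an unadjusted p under 0.05, beside 1.82% and 22.9% of all tested genes. The median log2 fold change was 0.11, with 17 values above 0 and 3 below, while over all tested genes the median was 0.03 and 55.1% were above 0. Msn, the cortical linker moesin, had the highest level, at 486.5 ± 20.5 and 526.2 ± 31.7 TPM (adjusted p = 0.303 by limma). Rassf5, named here after its values were seen as the best-known adaptor of MST1, stood at 135.7 ± 5.10 and 139.2 ± 2.27 TPM, with a 95% interval of the log2 fold change from -0.08 to 0.16. Foxo1 and Foxo3, transcription factors that MST1 stabilises, also named afterwards, stood at 23.0 ± 1.68 and 27.4 ± 1.302 TPM and at 28.2 ± 1.21 and 36.2 ± 4.26 TPM (adjusted p = 0.144 and 0.116 by limma). Foxo3 passed without blebbistatin 1 (0.44, adjusted p = 0.0493 by limma).

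The partners of the target members were set beside them. Of 7 TAM receptor, ligand and feedback genes 5 were tested, and beside Axl, which was chosen by this test, 0 of 4 were called by limma. An unadjusted p under 0.05 was found for 3 of the 4 (22.9% over all tested genes), with Pros1 higher and the feedback inhibitors Socs1 and Socs3 lower. Socs3 stood at 22.1 ± 1.72 and 16.6 ± 2.62 TPM (log2 fold change -0.40, adjusted p = 0.135 by limma). The relatives of Axl, named after their values were seen, were Tyro3, at 9.11 ± 0.327 and 9.34 ± 0.573 TPM, and Mertk, listed at 0 in each library. Of the ligands, Gas6 did not exceed 0.167 TPM, and Pros1, which binds Tyro3 and Mertk, stood at 24.2, 27.2 and 28.2 TPM with vehicle and 39.8, 32.4 and 34.7 TPM with blebbistatin (log2 fold change 0.41, adjusted p = 0.0864 by limma, and 0.041 without blebbistatin 2). Of 14 ARF and adhesion genes around Asap1 11 were tested, and beside Asap1, chosen by the same test, 0 of 10 were called by limma. Of these 10, 2 had an unadjusted p under 0.05, and their median log2 fold change was -0.04.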

How the data were processed

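The submitters' processing notes name the build mm10 and 3 tools, which are HISAT2 2.1.0, StringTie 1.3.4 and DESeq2 1.22.2, without saying what each did. Per the labels' protocols, libraries came from an Illumina TruSeq RNA v2 kit, which does not mark strand. The TPM values deposited by the authors sum to 1000000 in each library, and the deposited FPKM values differ from them by 1 factor per library. The deposited coverage, used as a signal of read depth, is not normalized. Rows of 12 to 14 genes per library, found at more than 1 place, had been merged. The settings were not given in the sources used here.

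Here log2(TPM + 1) was fitted by limma 3.58.1 in R 4.3.3 (mean-variance trend, Benjamini-Hochberg) over genes averaging 1 TPM or more. Fold changes were taken on that log2(TPM + 1) scale, which understates changes at low level. The code was first tested on simulated data. Members and the 11 lists were chosen with earlier results of these data known. All members were named, with signature genes, Mob1b, Wwtr1, Tead1 to Tead4, Vgll4, Nf2 and list genes that passed, or the highest where none did. Gene models came from GENCODE M21 (GRCm38), promoters from RefSeq GRCm38.p6. No library repeated another. Of 4 CD4 markers 2 were tested and 0 called (0 with unadjusted p under 0.05), and of 10 T cell markers 0 were called (1 with unadjusted p under 0.05). Over all tested genes these shares were 1.82% called and 22.9% with unadjusted p under 0.05. Coverage in place of TPM and the correction combined with the block were added after the data were seen.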

Additional observations from a re-analysis of the deposited data

How the results depend on the processing

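Over 20 alternatives the 3 targets, whose direction their choice fixes, had log2 fold changes of 0.47 to 0.65 for Axl, 0.47 to 0.67 for Ptpn14 and 0.38 to 0.50 for Asap1, and the 6 tested pathway members passed under none, with the lowest adjusted p for Stk4 without blebbistatin 2 (0.052 by limma). 2 of those 6 changed sign: Stk3 came to -0.029 and Lats1 to -0.038 with the length and GC correction, with or without the replicate block. Leaving out 1 library at a time gave 3 to 496 genes called higher and 0 to 594 called lower in place of 187 and 57, 0 to 3 of the Hippo list in place of 1, and 0 to 3 of the signature in place of 3. The signature count was 0 without each library in turn except blebbistatin 2. Genes called higher numbered 119 with a minimum of 0.1 TPM and 40 with no minimum. Genes called lower numbered 28 and 9 in those fits, 23 with no mean-variance trend and 192 with the length and GC correction, where 272 were higher. Median-ratio scaling gave 130 higher and 67 lower, a smaller share of higher calls than 187 and 57. With no minimum level, where more genes were tested, 0 genes of the Hippo list and 0 of the signature were called. The replicate block gave 0 genes higher, 0 lower, 0 of the Hippo list and 0 of the signature, alone and with the length and GC correction. Same-numbered libraries did not deviate together (r = 0.011, -0.037 and -0.034 for replicates 1, 2 and 3). The highest r of any pair was 0.059, for vehicle 3 with blebbistatin 2. With 3 libraries a group, values this near 0 cannot tell whether same-numbered libraries share an animal or a culture. The differences between groups in the paralog shares moved by less than 1 pooled SD in each alternative, although by read depth the shares themselves were at other levels. The cause of the changes between settings was not tested. TPM holds no counts, so values near 1 TPM, such as that of Yap1, have no counting interval.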

Other observations

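2 genes of the lists around the targets spread widely within a group, and both were singled out after their values were seen. Crk, an adaptor of adhesion signalling, stood at 27.7, 29.0 and 12.9 TPM in vehicle 1, 2 and 3 and at 15.2, 23.6 and 14.6 TPM in blebbistatin 1, 2 and 3. Socs1, a feedback inhibitor of cytokine signalling, stood at 127.3, 132.1 and 140.0 TPM with vehicle and at 35.2, 126.8 and 52.4 TPM with blebbistatin, so that blebbistatin 2 lay beside the vehicle libraries. The Socs1 difference was -1.10 on the log2 scale over all 6 libraries (limma, adjusted p = 0.179) and -1.61 without blebbistatin 2 (limma, adjusted p = 0.0117).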
